A study of Sorghum bicolor with 4 samples.

Results

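The genes described here lie in the gene-poor middles of the sorghum chromosomes. They were chosen by position and by the form of their ID, not by expression. Each of the 10 chromosomes was divided into bins of 1 Mb, all rows of the expression table were counted by the start of their locus, and bins with fewer than 10 rows were called gene-poor. Members were the rows of these bins that carry a single gene ID ending in 00, the regular endings of the gene numbering. There were 414 members among 34458 rows of the table (1.20%) and among 26652 rows of the same kind on the chromosomes (1.55%). They were set beside the 22595 rows of the same kind in gene-dense bins, those with 50 rows or more.

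Total RNA had been sequenced from the middle internode of the stem of the sweet sorghum variety SSV84 (Sorghum bicolor), raised in an open field. The labels list 2 libraries at booting (the panicle still inside the leaf sheath), 1 at the milky stage of the grain and 1 at physiological maturity. The table gives 1 value per stage in FPKM, mapped fragments corrected for transcript length and for the total mapped, made by the authors. Stage values therefore carry no SD and no n, no p-value was computed, how much plants or libraries vary cannot be read from them, and depth is unknown. All groups share 1 variety and 1 tissue, and the tissue label could not be checked against marker genes because the files pair the IDs with no gene names or descriptions.

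As background, each sorghum chromosome has gene-rich ends and a large middle around the centromere that is mostly repeats, chiefly retrotransposons. This middle is packed as heterochromatin, carries DNA methylation at high density and rarely recombines. Genes that lie there are surrounded by silent repeats, and some contain long introns into which transposons have inserted. Sweet sorghum stems elongate up to flowering and store sugar in the internodes as the grain fills. An FPKM value is scaled by transcript length, so that levels of genes of unlike length can be set side by side. Reads of near-identical genes cannot be told apart in these values, which limits such comparisons.

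Of the 688 bins on the 10 chromosomes, 208 (30.2%) held fewer than 10 rows and 31 of these held none. Members were found in 139 bins. Gene-dense bins numbered 276 (40.1%). The longest unbroken run of gene-poor bins spanned 25 bins on chromosome 8 and 22 on chromosome 9, against 8 on chromosome 7. Chromosomes 7 and 9 had the most members, 59 each, and chromosome 1, with the most rows in all, had the fewest, 14. Members on chromosome 1 lay between 32348878 and 48994298, in the coordinates of the table. On chromosome 6 they began far nearer to one end, with the first at 7004924 and the last ending at 36807791. Taking the end of the last row as the length of a chromosome, the median member lay at 44.8% of the length, the quartiles at 33.3% and 57.7%, and the extremes at 11.4% and 74.3%. The central part of the chromosomes, from 25% to 75% of the length, held 89.9% of members and 5.11% of gene-dense rows. Members thus sat in the middle, as their name says, with chromosome 6 displaced towards its start.

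Members stood far apart, which the choice of bins fixes in part. The median distance to the nearest row was 52258 bp for members (quartiles 6771 and 141030 bp), against 1548 bp for gene-dense rows. For 141 members (34.1%) the nearest row was 100 kb away or more, and for 0 gene-dense rows. In 11 bins the member was the sole row of its megabase. The most isolated member was Sobic.007G103400 (chromosome 7, 30410924 to 30455948), 1275 kb from the nearest row. It had 9.88 FPKM at booting, 14.9 in the milky stage and 13.5 at maturity. Next came Sobic.005G115200 (chromosome 5, 46704267 to 46707395), 1123 kb from the nearest row and listed at 0 in all 3 stages. A gene with values above 0 in every stage and a gene listed at 0 were therefore both found at the extreme of isolation.

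Fewer of the gene-poor members were detected in the stem than of the gene-dense rows. A gene was called detected at 1 FPKM or more in at least 1 stage. This held for 201 members (48.6%), against 13200 gene-dense rows (58.4%) and 53.7% of all rows of the table. Listed at 0 in every stage were 117 members (28.3%), against 3848 gene-dense rows (17.0%) and 21.3% of all rows. In bins of 10 to 24 rows this share was 21.8%, and in bins of 25 to 49 rows 24.3%. The remaining 96 members (23.2%) had values above 0 that stayed below 1 FPKM, against 24.5% of gene-dense rows. The difference from gene-dense rows thus lay in the genes listed at 0. In each stage taken alone, 191 members reached 1 FPKM at booting (46.1%), 190 in the milky stage (45.9%) and 192 at maturity (46.4%). The shares of gene-dense rows were 53.7% at booting, 54.6% in the milky stage and 55.6% at maturity. Nearly the same number of members was therefore detected in each stage, and 184 of the 201 were detected in all 3 (91.5%, against 87.3% of detected gene-dense rows).

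The shortfall was not the same on all chromosomes. Members were detected less often than the gene-dense rows of their own chromosome on 7 of the 10. It was widest on chromosome 9, with 22 of 59 members detected (37.3%, against 61.8% of gene-dense rows), and on chromosome 10, with 10 of 30 (33.3%, against 55.9%). On chromosome 5 the order was turned, at 21 of 42 members (50%) against 38.9% of gene-dense rows, the lowest gene-dense share of any chromosome. Chromosome 6 had the highest share among members, 34 of 56 (60.7%, against 57.9%), and on chromosome 8 it was 19 of 35 (54.3%, against 51.3%).

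**Figure D1:**
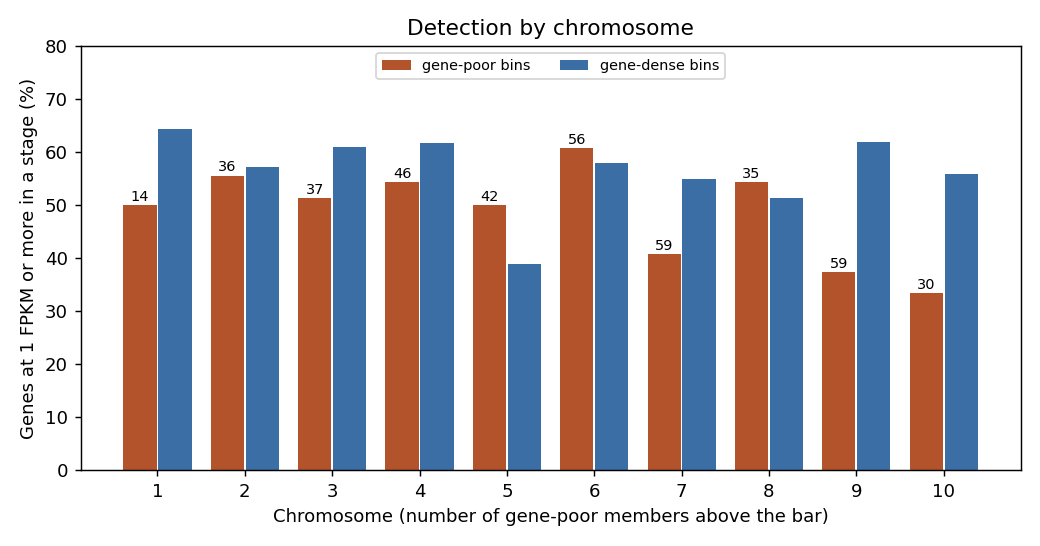
Bars show the percentage of genes at 1 FPKM or more in at least 1 stage on each chromosome, for members of gene-poor bins (orange, left, with the number of members above the bar) and for gene-dense rows (blue, right). The members' bar is the lower one on 7 chromosomes and the higher one on chromosomes 5, 6 and 8.

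Detected and undetected members were mixed in many bins, though not in all. Of the 139 bins with members, 110 held at least 1 detected member, 32 had all of theirs detected and 29 had none detected. Bins with 1 member, which cannot be mixed, were not set apart. A stretch of chromosome 5, picked after its values were seen, shows this mixing. Sobic.005G111900 (37302881 to 37307427) had 20.5 FPKM at booting, 22.4 in the milky stage and 21.8 at maturity. Its neighbour Sobic.005G112000, 2097 bp further on, was listed at 0 in all 3 stages. Further along, Sobic.005G112100 had 19.6, 24.4 and 25.3 FPKM in the order of the stages, Sobic.005G112200 was listed at 0 throughout, and Sobic.005G112300 had 20.8, 21.0 and 21.5 FPKM. Within about a megabase, members near 20 FPKM at all stages thus alternated with members at 0. Distance to the nearest row did not order detection either. It was 55.3% of 94 members within 5 kb of another row, 39.6% of 106 at 5 to 50 kb, 52.1% of 73 at 50 to 100 kb, and 48.9% of 141 at 100 kb or more.

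Members that were detected had a higher typical level than detected gene-dense rows. The median of the mean FPKM over the 3 stages was 17.6 for the 201 detected members (quartiles 5.75 and 36.8), against 12.5 for gene-dense rows (4.01 and 33.0) and 11.3 for all detected rows. Members had the higher median on 10 of 10 chromosomes. By stage, the median of genes at 1 FPKM or more was 18.1 FPKM in members at booting, 18.4 in the milky stage and 18.9 at maturity. In gene-dense rows these medians were 13.8 FPKM at booting, 13.6 in the milky stage and 13.9 at maturity. The upper end did not follow, since 12 of the detected members (5.97%) had a mean of 100 FPKM or more, against 7.47% of gene-dense rows. Low levels were the rarer ones, with 13.4% of detected members under a mean of 3 FPKM, against 20.2%. At a stricter limit of 5 FPKM in a stage, 42.0% of members and 44.5% of gene-dense rows were detected, so the gap in detection was smaller there.

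**Figure D2:**
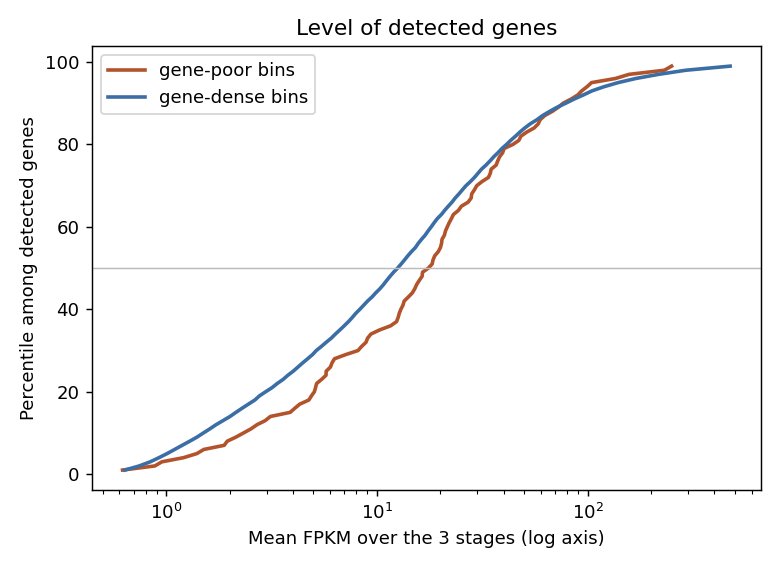
Curves give the percentile (vertical axis) of each mean FPKM over the 3 stages (horizontal axis, logarithmic) among detected genes, for 201 members of gene-poor bins (orange) and 13200 gene-dense rows (blue). The orange curve lies to the right through the middle of the range, with medians of 17.6 and 12.5 FPKM, and the curves cross near the 90th percentile, above which gene-dense rows have the higher values (104 FPKM for members at the 95th, against 140).

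Both measures differed with the number of rows in the bin, but not in steady steps over all classes. In bins of 1 to 3 rows 44.4% of 63 members were detected, in bins of 4 to 6 rows 45.9% of 181, and in bins of 7 to 9 rows 52.9% of 170. The median level of the detected ones was 29.0 FPKM in bins of 1 to 3 rows, 18.2 in bins of 4 to 6 and 15.2 in bins of 7 to 9. Bins of 10 to 24 rows, just beyond the limit, had 53.3% detected and a median of 10.6 FPKM, and bins of 100 rows or more had 60.5% and 13.1 FPKM. Among these classes, detection thus stood highest in the densest bins, and the level of detected genes stood highest in the emptiest. The emptiest class had only 28 detected genes. Their median locus was 10530 bp, against 4223 bp in bins of 100 rows or more. Right at the limit, 31 of 49 members in bins of 9 rows were detected (63.3%), with a median of 14.7 FPKM. In bins of 10 rows 9 of 25 genes were detected (36%), with a median of 15.8 FPKM.

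**Figure D3:**
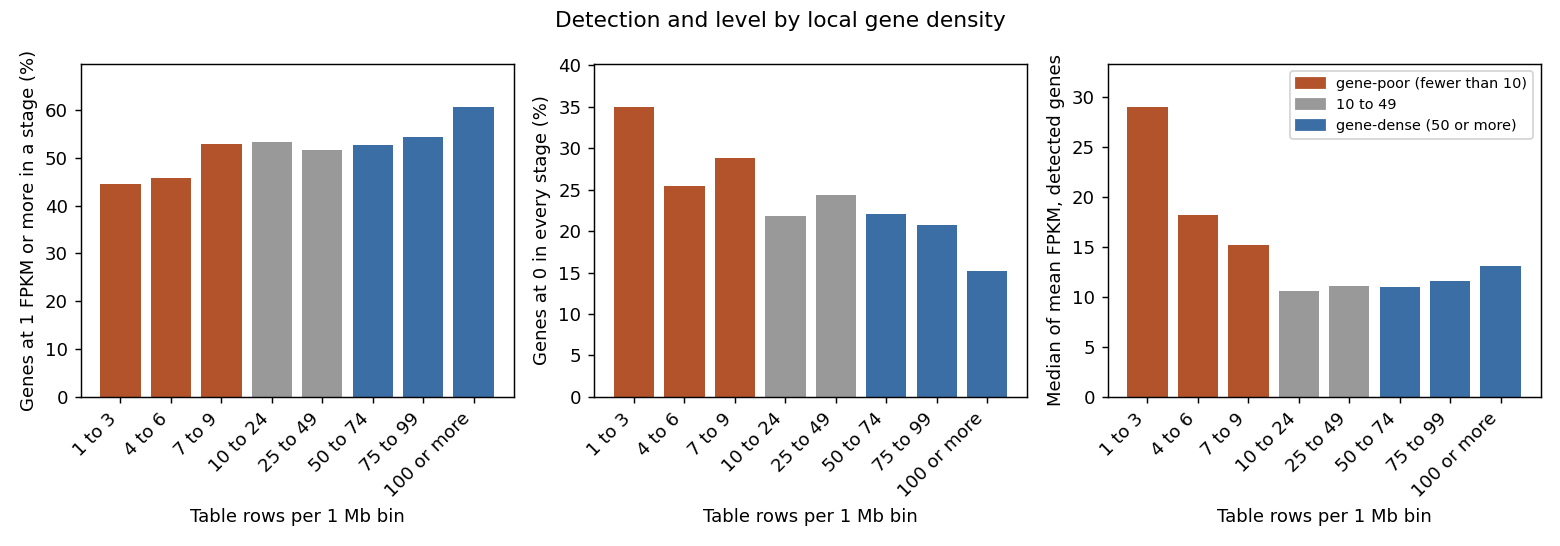
Panels show, from left to right, the percentage of genes detected, the percentage at 0 in every stage and the median of the mean FPKM among detected genes, by the number of table rows in the 1 Mb bin of the gene. Gene-poor bins (orange) have medians from 29.0 down to 15.2 FPKM, and all denser classes (grey and blue) lie between 10.6 and 13.1 FPKM.

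Detected members occupied long loci. The median locus was 7411 bp for detected members (quartiles 3907 and 15386 bp), against 4275 bp for detected gene-dense rows. Members that were not detected had a median of 2172 bp, against 2161 bp for gene-dense rows that were not detected. Loci of 10 kb or more made up 38.8% of detected members and 9.92% of detected gene-dense rows. The locus is the genomic span in the table, introns included, not the transcript. Row IDs starting with MSTRG, in place of a gene ID, were carried by 99.5% of detected members and by 99.8% of detected gene-dense rows. Among all genes in these bins the shares were 59.4% of members and 71.6% of gene-dense rows. For 43 members and 3195 gene-dense rows the locus was also listed for another row. The span of such a locus covers more than the gene itself. With such loci left out, the medians of detected genes were 6114.5 bp for members and 3872 bp for gene-dense rows.

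The longest locus was that of Sobic.006G036700 (chromosome 6, 12827150 to 13171556), 344 kb, with 3.86 FPKM at booting, 3.97 in the milky stage and 5.09 at maturity. Sobic.008G091300 (chromosome 8, 37872647 to 37942781) spanned 70.1 kb and had 20.3, 28.8 and 18.7 FPKM in the order of the stages. Detection differed from gene-dense rows mainly among short loci. Under 2 kb, 15.3% of 118 members were detected, against 28.4% of gene-dense rows, and from 2 to 5 kb 45.3% of 117, against 65.6%. From 5 to 10 kb the shares were 70.3% of 74 members and 75.9% of gene-dense rows. At 10 kb or more the order turned, with 74.3% of 105 members and 71.1% of gene-dense rows. The higher level of members was likewise seen at long loci, with a median of 21.1 FPKM at 10 kb or more, against 12.2 FPKM for gene-dense rows. The medians were closer at 5 to 10 kb, 14.3 against 14.0 FPKM, and at 2 to 5 kb, 15.2 against 13.5 FPKM. Under 2 kb the median was 4.94 FPKM in members, against 6.33 FPKM. Shares and medians by length were not computed over all rows. Of the loci of 10 kb or more, 77 of the 105 in members were listed for no other row, against 681 of 1843 in gene-dense rows. Most gene-dense spans in this class thus covered more than the gene itself. The contrasts in this class were not repeated with such loci left out.

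The members' values added up to 0.949% of all FPKM at booting, 0.957% in the milky stage and 1.02% at maturity, against their 1.20% share of the rows. The 10 members with the highest mean made up 41.6% of the members' sum at booting, 32.9% in the milky stage and 32.6% at maturity. Sobic.006G048700 (chromosome 6, 34559165 to 34562646) had the highest mean and lay in a bin of 2 rows, 151 kb from the nearest other one. It had 1063 FPKM at booting, 624 in the milky stage and 588 at maturity. The log2 difference, taken on FPKM + 1 here and below, was −0.85 for maturity against booting. Sobic.009G093200 (chromosome 9, 23410029 to 23415591) had 389, 265 and 249 FPKM in the order of the stages, a difference of −0.64. Sobic.005G111100 (chromosome 5, 35838248 to 35841051), 277 kb from any other row, had 299 FPKM at booting, 227 in the milky stage and 226 at maturity. All 3 were thus highest at booting, and their differences stayed under the size of 1 that is used below to call a change.

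Sobic.004G136600 (chromosome 4, 35757216 to 35760686) came nearest to that size among the 10, with 203 FPKM at booting, 103 in the milky stage and 102 at maturity (−0.98 for maturity against booting). Sobic.005G112800 had 269, 208 and 244 FPKM in the order of the stages, and Sobic.003G170300, whose locus is listed for more than 1 row, had 228, 168 and 156 FPKM. Sobic.010G141600 had 166, 112 and 128 FPKM, and Sobic.008G089900 had 140, 138 and 120 FPKM. The other two were highest at maturity. Sobic.008G094000 (chromosome 8, 43917195 to 43919961) had 223 FPKM at booting, 200 in the milky stage and 272 at maturity. Sobic.002G150700 (chromosome 2, 42654614 to 42659901) had 153, 125 and 194 FPKM in the order of the stages. Of the 10 most abundant members, 8 were therefore highest at booting, 2 at maturity and 0 in the milky stage. Whether this count is particular to members was not tested. Sums of FPKM, a different measure, were highest at booting over all rows and over gene-dense rows too. Over all rows the sum was 793091 at booting, 688481 in the milky stage and 682654 at maturity. Over gene-dense rows it was 608376, 520909 and 517237. The same count was not made for the most abundant gene-dense rows.

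Among all 201 detected members the order was another one. Highest at booting were 64 (31.8%), in the milky stage 54 (26.9%) and at maturity 83 (41.3%). Gene-dense rows were highest at booting in 36%, in the milky stage in 27.0% and at maturity in 37.0% of cases. Over all detected rows these shares were 35.7%, 26.7% and 37.6%. In bins of 25 to 49 rows 40.7% of detected genes were highest at maturity, nearly the share of members. On chromosomes 1 and 7 the highest members were less abundant. Sobic.001G263000 (chromosome 1, 47177976 to 47187340) had 63.9 FPKM at booting, 91.2 in the milky stage and 62.5 at maturity. Sobic.007G114200 (chromosome 7, 48642759 to 48655159) had 117, 94.2 and 102 FPKM in the order of the stages.

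Of the 11 members that were the sole row of their megabase, 4 were detected, and each of these had a mean of at least 10 FPKM. Sobic.003G166200 (chromosome 3, 24834677 to 24840210) had 69.2 FPKM at booting, 108 in the milky stage and 95.3 at maturity. Sobic.009G096100 (chromosome 9, 32785573 to 32812113), with a locus of 26.5 kb, had 55.9, 41.5 and 47.4 FPKM in the order of the stages. Sobic.003G170900 (chromosome 3, 33290393 to 33293283), 995 kb from the nearest row, had 24.2 FPKM at booting, 29.1 in the milky stage and 36.2 at maturity. The other is Sobic.007G103400, given above. None of these 4 differed between stages by 1 or more on the log2 scale.

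**Figure D4:**
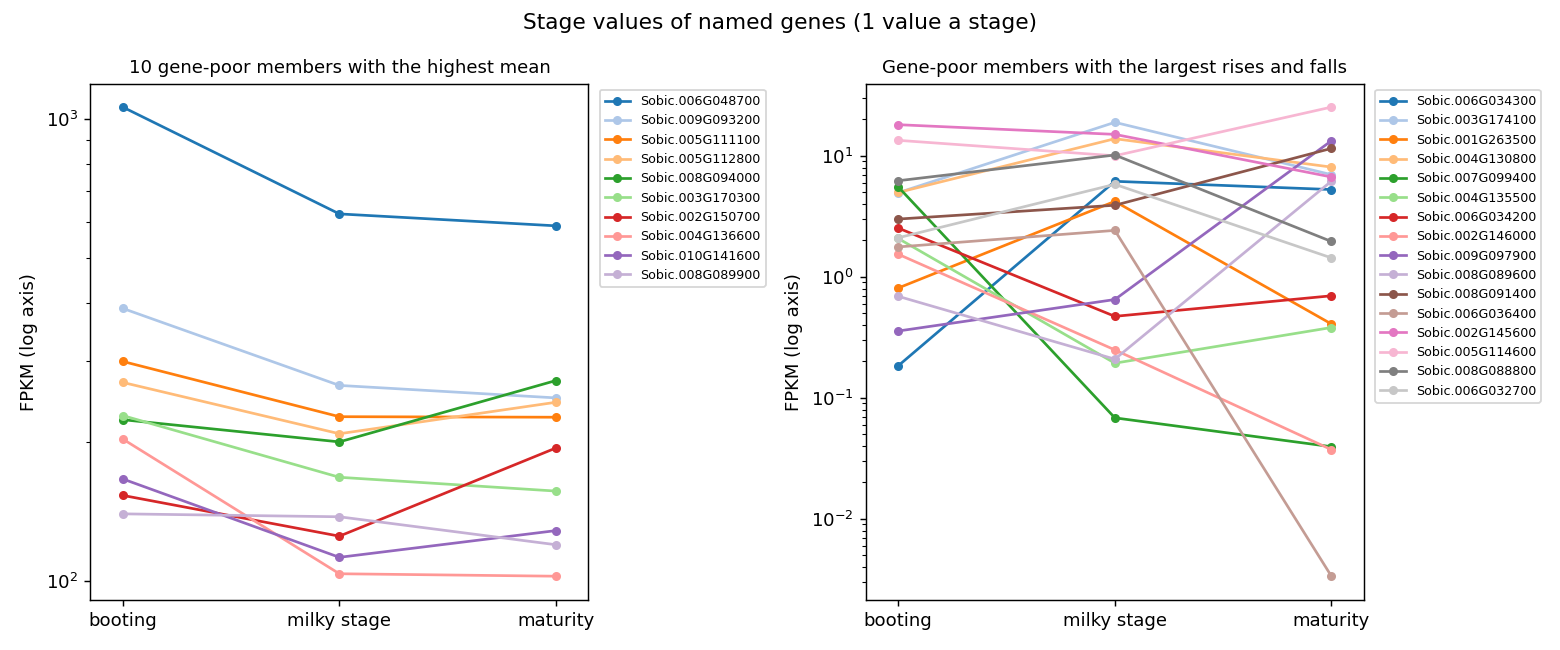
Points show the FPKM (logarithmic axis) of named members of gene-poor bins at booting, the milky stage and maturity, with 1 value per stage and lines joining the values of a gene. Each of the 10 most abundant members (left) differs between stages by less than 1 in log2(FPKM + 1), at most by 0.98 in size (Sobic.004G136600). The members with the largest rises and falls among those above 0 in both stages (right) mostly have values under 20 FPKM in all stages.

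Changes between stages were less frequent among detected members than among gene-dense rows. A gene was called changed where 2 stages lay 1 or more apart in log2(FPKM + 1). In at least 1 of the 3 comparisons 22 of 201 detected members changed (10.9%), against 2729 of 13200 gene-dense rows (20.7%) and 21.4% of all detected rows. Just beyond the limit the order was turned. Of 571 detected genes in bins of 10 to 24 rows, 11.9% changed in milky vs booting, against 10.6% of gene-dense rows. In maturity vs booting these shares were 18.0% and 13.9%, and in maturity vs milky 10.9% and 8.59%. Changes thus did not become steadily rarer as bins held fewer rows. The span from the lowest to the highest stage had a median of 0.43 on the log2 scale in members, against 0.55 in gene-dense rows. It stayed under 1.5-fold in FPKM + 1 for 131 members (65.2%), against 53.6% of gene-dense rows and 53.1% of all detected rows. In bins of 10 to 24 rows this share was 54.6%, and in bins of 25 to 49 rows 54.9%. The filter admitted 17 members that passed 1 FPKM in some stages but not in others, so these counts describe the members that passed and are no test of a difference.

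In the milky stage against booting, 6 members rose and 5 fell, 11 of 201 (5.47%). The background over all detected rows was 10.7% (4.83% rose and 5.9% fell), and gene-dense rows had 10.6%. Among members above 0 in both stages, the largest rise was that of Sobic.006G034300 (chromosome 6, 9689969 to 9694142), with 6.17 FPKM in the milky stage against 0.184 at booting (2.60), and 5.27 at maturity. Sobic.003G174100 (chromosome 3, 41150970 to 41152943) rose to 18.9 FPKM, against 4.97 at booting (1.74), and had 7.0 FPKM at maturity. Sobic.001G263500 had 4.21 FPKM against 0.809 (1.53) and Sobic.004G130800 had 13.9 FPKM against 4.99 (1.31). The largest fall was that of Sobic.007G099400 (chromosome 7, 22819013 to 22820415), with 0.0684 FPKM in the milky stage against 5.54 at booting (−2.61). Sobic.004G135500 fell to 0.194 FPKM, against 2.08 (−1.37), Sobic.006G034200 to 0.472 FPKM, against 2.53 (−1.26), and Sobic.002G146000 to 0.249 FPKM, against 1.54 (−1.02). The remaining fall and another rise involved a value of 0. Sobic.003G166400 (chromosome 3, 25296337 to 25296683) was listed at 0 in the milky stage, against 2.32 FPKM at booting, and Sobic.009G098700 (chromosome 9, 37354025 to 37356661) had 1.55 FPKM in the milky stage and was listed at 0 at booting and at maturity. All 5 members that fell had under 6 FPKM in the 3 stages, where the spread of a value is unknown. With a mean of at least 5 FPKM required, 2 of 161 members changed (1.24%), against 9.89% of gene-dense rows.

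At maturity against booting, 8 members rose and 8 fell, 16 of 201 (7.96%). The background was 14.3% (8.1% rose and 6.19% fell), and gene-dense rows had 13.9%. Sobic.009G097900 (chromosome 9, 35364103 to 35365791), 225 kb from the nearest row, rose most, with 13.3 FPKM at maturity against 0.357 at booting (3.40). Its value in the milky stage was 0.650 FPKM, so the difference lay in the last step. Sobic.008G089600 (chromosome 8, 32704824 to 32714652) rose to 6.19 FPKM, against 0.691 (2.09), and Sobic.008G091400 to 11.5 FPKM, against 3.01 (1.65). Sobic.006G034300 stood 2.41 above booting. Falls were led by Sobic.007G099400, with 0.0395 FPKM against 5.54 (−2.65). Sobic.006G036400 (chromosome 6, 12195253 to 12199306) fell to 0.00336 FPKM, against 1.77 (−1.46), after 2.42 FPKM in the milky stage. Sobic.002G145600, a short locus of 439 bp, fell to 6.70 FPKM, against 18.1 (−1.31), and Sobic.002G146000 fell to 0.0373 FPKM, against 1.54 (−1.29). Among members in bins of fewer than 20 rows the share of changed genes was 13.7% (72 of 526), against 13.9% of gene-dense rows, so the difference was much smaller at this wider limit.

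At maturity against the milky stage, 7 members rose and 7 fell, 14 of 201 (6.97%). The background was 9.25% (5.62% rose and 3.63% fell), and gene-dense rows had 8.59%. This share lay near the background, and its order with gene-dense rows varied with the choice of bins. With bins of the same width started elsewhere it was 9.44% of 180 members against 8.55%, and with bins of fewer than 20 rows 9.51% of 526 against 8.59%. It stayed lower with bins of fewer than 5 rows, 4.17% of 48 against 8.59%, with bins of 2 Mb, 7.69% of 195 against 8.55%, and with gene ID rows alone counted per bin, 7.11% of 239 against 8.62%. Sobic.009G097900 rose by 3.12 on the log2 scale. Sobic.008G089600 rose to 6.19 FPKM, against 0.209 in the milky stage (2.57). Sobic.008G091400 rose to 11.5 FPKM, against 3.91 (1.35), and Sobic.005G114600 (chromosome 5, 43831327 to 43832969) to 25.3 FPKM, against 10.02 (1.26). Sobic.008G088800 fell to 1.96 FPKM, against 10.2 (−1.92), and Sobic.001G263500 to 0.408 FPKM, against 4.21 (−1.89). Sobic.006G036400 (−1.77) and Sobic.006G032700, with 1.44 FPKM against 5.82 (−1.49), followed. Sobic.001G263500 and Sobic.006G032700 passed the size in both steps, with their peak in the milky stage, as did Sobic.003G174100 and Sobic.009G098700. No member was listed at 0 in a stage and at 10 FPKM or more in another.

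The lower share of changed members was seen at levels above the lowest and was not the same at all lengths. Among genes with a mean of at least 3 FPKM, 12 of 174 members changed in any comparison (6.90%), against 18.7% of 10538 gene-dense rows. At a mean of 30 FPKM or more these were 2 of 59 members (3.39%), against 16.2%. Under a mean of 3 FPKM the order turned, with 10 of 27 detected members (37.0%), against 28.4%. By locus length, 2 of 78 detected members with 10 kb or more changed (2.56%), against 14.4% of gene-dense rows. The shares were nearer to each other at 5 to 10 kb, 11.5% of 52 against 15.1%, at 2 to 5 kb, 15.1% of 53 against 20.2%, and under 2 kb, 33.3% of 18 against 40.0%. Shares over all detected rows were not computed within these classes. Without such a split, 21.4% of all detected rows changed in any comparison. Long loci are the more frequent among members, as given above, and the part of length or level in the overall share was not tested beyond these classes. Gene-dense loci of 10 kb or more were mostly listed for another row too, as given above, and these were not set apart here.

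**Figure D5:**
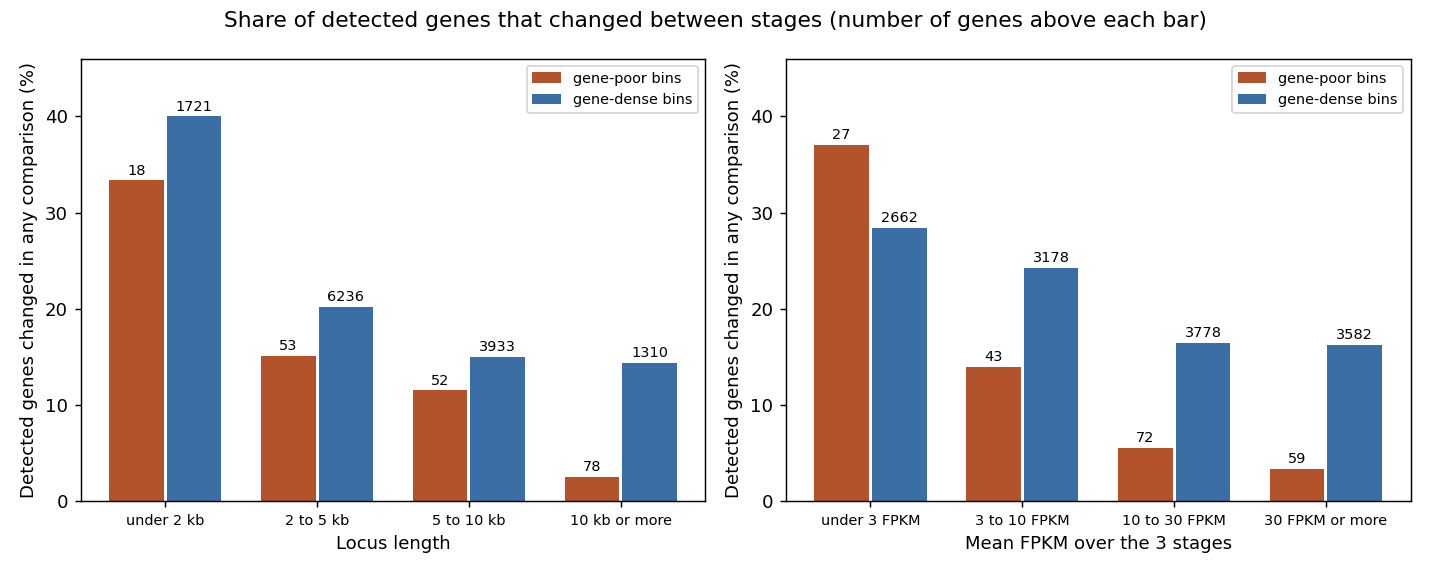
Bars give the percentage of detected genes that changed in at least 1 of the 3 comparisons, by locus length (left) and by mean FPKM (right), for members of gene-poor bins (orange, left of each pair) and gene-dense rows (blue), with the number of genes above each bar. Members have the lower bar in all 4 length classes and in the 3 classes from 3 FPKM upwards, and the higher bar under 3 FPKM.

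Members that changed lay beside members that did not. In the bin of chromosome 6 that starts at 9 Mb, Sobic.006G034200 fell in the first step and Sobic.006G034300 rose in it. The row next to it, Sobic.006G034400, named with the following genes after its values were seen, had 40.4 FPKM at booting, 41.2 in the milky stage and 72.7 at maturity. Sobic.006G034500 had 73.3, 91.2 and 117 FPKM in the order of the stages. On chromosome 8, Sobic.008G089600 rose at maturity, whereas the next member, Sobic.008G089700, with a locus of 71.6 kb that is listed for another row too, had 75.6, 90.8 and 79.1 FPKM. In the bin of chromosome 6, 4 of the 5 members were thus higher at maturity than at booting, by 0.63 to 2.41 on the log2 scale, and 1 of the 4 reached the size of a change.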

How the data were processed

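The authors deposited 1 table of FPKM values with 1 column per stage, per the file headers. HISAT2 2.0.5, Bowtie2 2.2.9, cutadapt 1.8.1 and Cuffdiff are named, per the submitters' processing notes. The role of each and the way libraries were combined are not given there, and the genome build is not stated. Starts in the table count from 0 (6 rows start at 0), and coordinates are printed from 1.

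Members and lists were chosen with earlier results of these data known. The limma fit in the design needs a value per library and could not be made, so the rule of size beside it was used: stages 1 or more apart in log2(FPKM + 1), over all 18505 rows at 1 FPKM or more in a stage. Reads of near-identical genes cannot be told apart in these values. Named members were the 10 of highest mean, the highest on each chromosome, the 4 largest rises and falls per comparison among members above 0 in both stages, and those in the emptiest bins. The RefSeq table for Sorghum_bicolor_NCBIv3 lists 0 of the member IDs in this spelling and has no descriptions, so 0 of 19 lists fixed by description had a member. No sequence was used. The code was tested on simulated data and ran under Python 3.11.15 with matplotlib 3.10.9, scipy 1.17.1, pandas 2.3.3 and numpy 2.4.6. Alternatives covered pseudocounts, filters, scaling, bins and locus sharing.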

Additional observations from a re-analysis of the deposited data

How the results depend on the processing

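Of 201 detected members, 11 changed in the first step (milky vs booting), 16 over the whole span (maturity vs booting) and 14 in the last step (maturity vs milky). The shares over all detected rows were 10.7%, 14.3% and 9.25%. In that order, there were 3, 4 and 4 of 201 with a pseudocount of 5 (1.49%, 1.99% and 1.99%), against 4.58%, 6.31% and 3.61% of all detected rows. Requiring a mean of 5 FPKM left 2, 6 and 7 of 161 (1.24%, 3.73% and 4.35%), against 10%, 12.1% and 7.55% of all rows that passed. A size of 2 on the log2 scale left 2, 4 and 2 of 201 (0.995%, 1.99% and 0.995%), against 1.66%, 3.06% and 1.84%. Bins of fewer than 5 rows gave 2, 3 and 2 of 48 (4.17%, 6.25% and 4.17%). Bins of fewer than 20 rows gave 43, 72 and 50 of 526 (8.17%, 13.7% and 9.51%). For both of these bin limits the shares over all detected rows were 10.7%, 14.3% and 9.25%. For milky vs booting, a pseudocount of 0.1 gave 17 of 201 (8.46%, against 17.2% of all detected rows). Bins of 2 Mb gave 6 of 195 (3.08%, against 10.7%). The cause of these moves was not tested. For maturity vs milky, members changed more often than gene-dense rows with bins of fewer than 20 rows (50 of 526, 9.51%) and with shifted bins (17 of 180, 9.44%). The share over all detected rows was 9.25% in both settings, and the cause was not tested. In the other settings run, members kept the lower share in each comparison. Detection, 48.6%, was 37.6% with all single IDs, 56.8% at 0.1 FPKM, 42.0% at 5 FPKM and 34.3% for loci of 1 to 5 kb, below gene-dense rows each time. The median level, 17.6 FPKM, was 21.4 and 13.4 with bins of fewer than 5 and fewer than 20 rows, 6.02 for rows above 0 and 13.8 for loci of 1 to 5 kb, above gene-dense rows each time. With bins of fewer than 5 and fewer than 20 rows, the median locus of detected members was 10645.5 and 5676 bp, and the distance to the nearest row 157164 and 16368 bp. Of 24 named differences, 14 fell under a size of 1 with a pseudocount of 5. Leaving out loci listed for more than 1 row was chosen after seeing the data and moved no count of changed members by over 1.5 times.

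No paired analysis was possible because the table has 1 column per stage, and for the same reason fits without booting replicate 1 or 2 were not run.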

Other observations

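Beside the members, gene-poor bins held other kinds of row, and their make-up differed from that of gene-dense bins. Of 836 rows in gene-poor bins, 277 (33.1%) had a single ID not ending in 00, against 12.2% of rows in gene-dense bins, and 126 (15.1%) were loci with no ID, against 3.71%. Of the 277, 59 were detected (21.3%, against 22.1% in gene-dense bins), with a median level of 10.7 FPKM, against 4.60 FPKM. Of the 126 loci with no ID, 74 were detected (58.7%, against 60.7%), with a median of 3.96 FPKM, against 2.81 FPKM. All 19 rows with several IDs were detected (against 94.7%), with a median of 16.2 FPKM, against 18.5 FPKM. In the first 2 kinds of row, detection thus differed little between gene-poor and gene-dense bins, and the median level of detected rows was higher in gene-poor bins, whereas in rows with several IDs it was lower.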
